A study of Mus musculus with 10 samples.

Results

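Control mouse embryonic stem (ES) cells, left to differentiate as embryoid bodies in serum, were compared between day 4 and day 7. The comparison covered every gene that reached 1 RPKM (reads scaled by transcript length and library total) in either library, 12125 of the 21937 gene symbols in the table. Each day had 1 library, so differences have no replicate check and no test, and they are given as log2(RPKM + 0.5) on day 7 minus day 4. A gene was counted as higher or lower at a difference of 2-fold or more on that scale.

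Both control libraries came from C57BL/6 ES cells labelled CTL, in a medium with fetal bovine serum that does not favour neural differentiation. Beside them stand 2 libraries of Tet3-overexpressing ES cells in the same medium on days 4 and 7, and 2 of wild-type ES cells on days 6 and 10 of SFEB culture, which leads ES cells to neuroectoderm. These 6 of the series' 10 libraries share no sample between the 3 time courses. The Tet3 protein oxidises methylcytosine in DNA. What construct the control or the overexpressing cells carried, and how many clones or cultures went into a library, is not given in the sources used here. Tet3 itself stood at 0.96 RPKM in control cells on day 4 and 5.87 on day 7, against 12.5 and 14.1 RPKM in the overexpressing cells.

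Embryoid bodies are floating aggregates in which ES cells pass through steps that resemble those of the early embryo. Pluripotent cells first take on epiblast character, then pass through a primitive streak stage driven by Wnt, Nodal and FGF signals, and from there form mesoderm and endoderm. Mesoderm gives heart, vessels and the first blood cells, and this endoderm gives the gut lining. In bulk RNA a lower value can mean fewer cells of a type or less RNA per cell, and these cannot be told apart.

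On day 7, 1425 genes (11.8% of those compared) were higher and 1056 (8.71%) were lower than on day 4. Differences of 4-fold or more were held by 511 higher and 171 lower genes, and of 16-fold or more by 60 higher and 3 lower genes. Most genes moved little, with 61.4% within 1.5-fold and a median difference of -0.0034 over all compared. From under 0.5 RPKM on day 4, 80 genes reached 5 RPKM or more on day 7. The reverse was seen for 5 genes, Nfasc, Mir302d, Mir363, Snord38a and Snord99, of which Nfasc was named after its values were seen. Estimated depth was 43700000 reads for control day 4 and 26900000 for day 7, and 10100000 to 22400000 for the other 4 libraries. The 10 most abundant genes took 8.29% of the summed RPKM on day 4 and 8.86% on day 7. Of these, 9 on day 7 were translation or chaperone genes, led by Eef1a1 at 6755 RPKM on day 4 and 7793 on day 7, and the other was the embryonic globin Hbb-bh1.

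**Figure D1:**
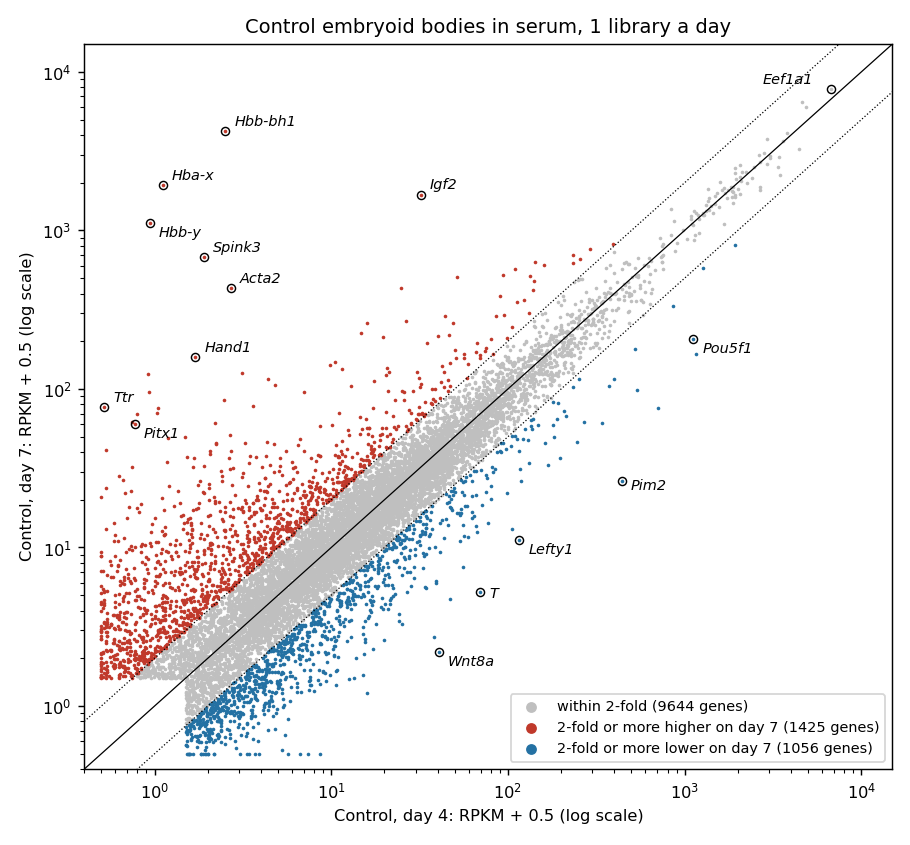
Level of each of the 12125 compared genes in control embryoid bodies on day 4 (x axis) and day 7 (y axis), as RPKM + 0.5 on log scales, 1 point a gene. The solid line marks equal levels and the dotted lines 2-fold; red points (1425) are higher and blue points (1056) lower on day 7, with Hbb-bh1, Hba-x and Hbb-y farthest above the line and Wnt8a, T and Pim2 far below it.

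The largest differences were gains of blood, muscle, mesoderm and yolk sac genes. The embryonic globins Hba-x, Hbb-bh1 and Hbb-y ranked highest, with differences of 10.76, 10.72 and 10.21. They were followed by Spink3, a secreted trypsin inhibitor (8.48), Acta2, the smooth muscle actin (7.31), Ttr, the transthyretin carrier protein (7.20), and Capn6 (7.08). Tnni1, the slow skeletal troponin I of embryonic heart (6.68), and Hand1, a mesoderm regulator (6.54), came next. Apoa1 (6.45) and Apom (6.36), apolipoproteins, and Pitx1 (6.29), a hindlimb regulator, completed the 12 largest gains. Streak genes were among the largest losses. Wnt8a, a Wnt ligand of the streak, had a difference of -4.21, the kinase gene Pim2 -4.06, Olig1 -3.82, T (Brachyury) -3.74, and Slc27a2 -3.72. Lefty1, a Nodal inhibitor, stood at -3.37, Sncb at -3.31 and Fst, an activin inhibitor, at -3.30. The other 4 of the 12 largest losses, Mir363, Mir302d, Snord99 and Snord38a, are short RNA genes listed at 0 on day 7.

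Pluripotency genes were lower on day 7, though many kept a sizeable level. In the naive pluripotency list 12 of 15 genes were lower and 0 higher, with a median of -1.14. In the core pluripotency list 8 of 12 were lower and 0 higher, with a median of -1.28. Pou5f1 (Oct4), the central pluripotency regulator, went from 1118 RPKM on day 4 to 207 on day 7 (-2.43). In Tet3-overexpressing cells it read 1186 and 880 RPKM, and in the wild-type SFEB culture 35.8 on day 6 and 20.3 on day 10. Control day 7 thus lay between the other serum libraries and the neural culture. Nanog went from 16.6 to 4.13 RPKM, Esrrb from 55.5 to 13.4, Sox2 from 51.2 to 16 and Utf1 from 168 to 32.4. Tdgf1 (Cripto), a Nodal co-receptor, had the largest loss of the naive list, from 702 to 75.0 RPKM. Klf4 went from 10.6 to 4.15 RPKM and Zfp42 (Rex1) from 15.5 to 7.05, while Tbx3 went the other way, from 7.06 to 13.98 RPKM, short of 2-fold. The RNA-binding genes moved less. Lin28a stood at 172 RPKM on day 4 and 168 on day 7, Sall4 at 61.8 and 41.6, and Trim71 at 18.2 and 13.6.

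Genes of the primed epiblast, the state that precedes gastrulation, had a larger median loss of -1.91, with 6 of 10 lower and 1 higher. Pou3f1 went from 10.1 to 0.86 RPKM, Zic5 from 9.39 to 1.07, Fgf5 from 22.5 to 4.56 and Otx2 from 38.1 to 9.61. Dnmt3b, the de novo DNA methyltransferase of the epiblast, went from 182 to 49.0 RPKM. Cdh2 (N-cadherin) was the member higher by 2-fold or more, at 5.47 and 34.2 RPKM, and Sox4, at 17.95 and 35.6, was just short of it. In the overexpressing cells Fgf5 went from 9.49 to 32.8 RPKM and Otx2 from 26.7 to 49.1, of which Fgf5 passed 2-fold and Otx2, with a log2 difference of 0.87, did not. Germline genes, several of which are known to be silenced by DNA methylation, were also lower in 5 of 9 cases and higher in 0. Sycp3 went from 13.3 to 1.5 RPKM and Ddx4 (Vasa) from 9.80 to 1.57.

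MicroRNA genes of pluripotent cells were among the losses, on few reads. The miR-302 and miR-106a-363 clusters are known for their expression in ES cells. The seeds of their members, the bases that pair with targets, are related for some members and not for others. Of 36 symbols beginning with Mir at 1 RPKM or more, the host gene Mir17hg included, 7 were higher and 15 lower. These members, other than Mir363 and Mir302d, were named after their values were seen. The table gives the hairpin gene, so mature microRNA and its longer precursor cannot be told apart. The mature RefSeq sequences (GRCm38.p6) are shown 5′ to 3′ to set out the seeds, bases 2 to 8, in capitals, first for 4 genes above 0 only on day 4 of the control and then for 3 above 0 only on day 7.
miR-302d-3p: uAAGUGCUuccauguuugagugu
miR-20b-5p: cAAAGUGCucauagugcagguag
miR-363-3p: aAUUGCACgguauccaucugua
miR-92a-3p: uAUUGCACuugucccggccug
miR-351-5p: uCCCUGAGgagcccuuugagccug
miR-503-5p: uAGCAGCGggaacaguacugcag
miR-10b-5p: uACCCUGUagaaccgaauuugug

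The miR-363-3p and miR-92a-3p seeds were identical. They differed from the seeds of miR-302d-3p and miR-20b-5p, which both hold the letters AAGUGC. Mir363 was at 8.17 RPKM on day 4, about 27 estimated reads, and listed at 0 on day 7. Mir302d was at 5.16 RPKM, about 15 reads, and listed at 0. With overexpression Mir302d was the reverse, listed at 0 on day 4 and at 7.79 RPKM on day 7. Mir20b and Mir92-2 lie beside Mir363 on the X chromosome, at 1.42 and 1.5 RPKM on day 4 and 0 on day 7, on 5 and 6 estimated reads. Mir351, listed at 0 on day 4, reached 6.65 RPKM on day 7, about 18 reads. Its X-linked neighbour Mir503 reached 2.58 RPKM and Mir10b, which lies within the Hoxd cluster, 2.69, each on about 5 reads. For counts of 5 or 6 reads in the deeper day 4 library a 0 on day 7 was within counting error, as the 95% intervals of the ratio included no change.

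Genes of the primitive streak were high on day 4 and low on day 7. Of 18 members compared, 11 were lower and 3 higher, with a median of -1.31, and 5 further members were under 1 RPKM on both days. T, the regulator of nascent mesoderm, went from 69.2 to 4.72 RPKM, and Wnt8a from 40.0 to 1.69. The 95% counting interval of the log2 ratio of estimated reads, which covers counting error only and carries no pseudocount, was -4.18 to -3.57 for T. Fgf8 went from 55.3 to 7.07 RPKM, Mixl1 from 5.02 to 1.02 and Eomes from 12.7 to 5.55. Mesp1, which marks the earliest heart mesoderm, was under the filter at 0.70 and 0.41 RPKM. The members higher by 2-fold or more were Cdx2, Cer1 and Nkx1-2, while Lhx1 (1.64 and 3.70 RPKM) and Evx1 (2.52 and 4.79) had smaller positive differences. Cdx2, which is known from posterior mesoderm, the allantois and trophectoderm, went from 2.75 to 44.9 RPKM.

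The overexpressing cells showed another order of the same genes. There T was at 1.44 RPKM on day 4 and 12.5 on day 7, Eomes at 2.95 and 23.5, Mixl1 at 0.25 and 6.62, and Fgf8 at 2.95 and 22.8. Over the same 18 genes, 10 were higher on day 7, 1 was lower and the median was 2.07. Of all 12125 genes 3.27% were higher and 0.94% lower by 2-fold in that course. On day 4 these 4 genes were higher in control than in overexpressing cells, and on day 7 they were lower. In SFEB culture T stood at 3.64 RPKM on day 6 and 7.52 on day 10.

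The secreted signals of the streak were mixed. In the Nodal list 5 of 12 genes were lower, 2 higher, and the median was -0.0041. Nodal itself went from 61.7 to 16.3 RPKM, its co-receptor Tdgf1 as given above, and its inhibitors Lefty1 from 115 to 10.7 and Lefty2 from 71.3 to 18.2. Cfc1 (Cryptic), the other co-receptor, went from 1.03 to 37.0 RPKM, so the co-receptor genes moved in opposite directions. Foxh1 (68.9 and 73.8 RPKM), a transcriptional partner of the Smads, was within 1.5-fold. Among FGF ligands Fgf4, Fgf5, Fgf8 and Fgf17 were lower, and Fgf3 (1.05 to 14.6 RPKM), Fgf10 and Fgf15 were higher. Among 9 Wnt ligands, Wnt8a and Wnt9a were lower, whereas Wnt2 went from 0.18 to 21.5 RPKM, Wnt5a from 1.29 to 18.5 and Wnt11 from 1.51 to 6.38. Wnt antagonists and targets had 7 of 16 higher and 2 lower. The antagonists Dkk1 (0.50 to 14.8 RPKM), Frzb (0.78 to 17.7) and Sfrp5 (0.27 to 5.74) led the gains. Apcdd1 (3.43 to 22.5 RPKM) and Lef1 (11.65 to 24.2) were also higher. The 2 lower members were Tcf7 (48.4 to 20.9 RPKM) and Nkd2 (2.85 to 0.65). The target Axin2 went from 11.7 to 6.85 RPKM, within 2-fold.

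BMP signals, which pattern ventral and extraembryonic mesoderm, were higher as a group. Of 18 genes 13 were higher and 1 lower, with a median of 2.35. Bmp4 went from 2.21 to 39.8 RPKM, Bmp5 from 0.09 to 10.5 and Bmp2 from 1.02 to 14.01. Genes known to respond to BMP were among the gains. Id1 went from 31.6 to 108 RPKM, Id3 from 20.4 to 96.8, Msx2 from 1.54 to 23.2 and Bambi from 3.27 to 36.9. The BMP antagonist Grem1 was the member that was lower, from 7.84 to 2.79 RPKM. The antagonist Nog was higher (0.32 to 1.58 RPKM). Chrd (0.55 and 1.12 RPKM), Id4 (1.93 and 2.05) and Smad7 (7.85 and 8.28) were within 2-fold. In the retinoic acid pathway 6 of 11 genes were higher and 0 lower. They included the receptor Rarb (0.79 to 6.24 RPKM), the synthesis enzyme Aldh1a2 (1.46 to 5.19) and the degrading enzyme Cyp26a1 (2.65 to 16.5). Notch genes were split, with 3 of 14 higher and 3 lower. Hey2 and Hey1, targets active in vessels and heart, and the ligand Dll4 were the higher ones, and the ligands Dll1, Dll3 and Jag2 the lower ones.

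Lateral plate mesoderm genes had larger gains than paraxial ones. Of 13 lateral and intermediate mesoderm genes compared, 11 were higher and 0 lower, with a median of 2.64. Hand1 went from 1.20 to 158 RPKM, Pitx1 from 0.27 to 59.6, Foxf1a from 0.09 to 13.8 and Tbx4 from 0.86 to 22.2. Tbx4 and Pitx1 are known from hindlimb, and Tbx4, Foxf1a and Hand1 also from the allantois, the mesoderm of the future umbilical cord. In the overexpressing cells Hand1 read 1.18 and 5.63 RPKM, Pitx1 0.16 and 0.12, and Tbx4 0.91 and 0.47. Control day 7 was above every other library of the 6 for these 3 genes. Wt1 (1.83 and 1.78 RPKM) was within 1.5-fold, and the kidney regulators Pax2 and Pax8 were under 0.2 RPKM on both days. Of 20 paraxial and somite genes only 9 passed the filter, with 3 higher and 4 lower. Meox1 went from 0.13 to 2.55 RPKM and Tcf15 from 9.51 to 2.16, and the muscle regulators Myod1, Myf5 and Myog were at 0.13 RPKM or less on both days.

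Many heart genes were higher on day 7, some of them not particular to heart. Of 12 cardiac transcription factor genes compared, 11 were higher and 0 lower, with a median of 3.09. Hand2 went from 0.53 to 70.3 RPKM, Gata6 from 1.27 to 24.1, Isl1, of the second heart field, from 0.38 to 9.86, and Tbx20 from 0.94 to 15.6. Gata4 went from 3.71 to 27.1 RPKM and Nkx2-5 from 0.58 to 2.91. The endoderm regulator list also holds Gata4 and Gata6, and the lateral mesoderm list also holds Hand1. Tbx5, of the first heart field and left ventricle, stayed under the filter at 0.06 and 0.45 RPKM. Several contractile genes of the thin filament and the light chains were higher too. The thin filament genes Acta1 (5.04 and 5.75 RPKM) and Tnni3 (1.62 and 1.15) were within 2-fold. Of 29 sarcomere and heart muscle genes 16 were compared, of which 11 were higher and 0 lower, with a median of 2.35. Tnni1 went from 0.43 to 94.9 RPKM, Tnnt2 from 0.25 to 31.5, Tnnc1 from 1.71 to 60.5, Actc1 from 3.30 to 19.6 and Myl7 from 2.65 to 28.8. Myh7 reached 6.05 RPKM, but Myh6, the alpha myosin heavy chain of heart, was at 0.28 and 0.42, and Ttn, the titin gene, at 0 and 0.02 RPKM. Among calcium-handling genes Pln and Ryr2 were at 0.45 RPKM or less on both days, while the calcium pump gene Atp2a2 read 73.1 and 57.6 RPKM. With overexpression Tnnt2 read 0.04 and 0.57 RPKM and Tnni1 0.12 and 1.03, so day 7 of the control stood above all 5 other libraries for both.

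The promoters of the muscle actin and atrial light chain genes are shown because they hold the CArG box, the element known to bind serum response factor. The RefSeq stretches (GRCm38.p6) cover the 250 bases before the start, 5′ to 3′ on the gene's strand, with the CArG box in capitals. They are chr2:114052876-114053125 for Actc1 and chr11:5898783-5899032 for Myl7, both on the minus strand.
Actc1: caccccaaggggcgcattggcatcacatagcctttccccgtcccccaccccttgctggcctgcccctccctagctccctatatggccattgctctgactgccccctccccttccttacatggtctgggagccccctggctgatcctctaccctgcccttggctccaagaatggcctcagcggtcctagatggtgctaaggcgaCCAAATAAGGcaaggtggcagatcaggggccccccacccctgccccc
Myl7: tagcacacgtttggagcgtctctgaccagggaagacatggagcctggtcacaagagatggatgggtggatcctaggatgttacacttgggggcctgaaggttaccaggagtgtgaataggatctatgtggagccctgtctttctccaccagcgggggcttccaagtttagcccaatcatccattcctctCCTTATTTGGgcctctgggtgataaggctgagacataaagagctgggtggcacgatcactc

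The box began 47 bases before the start in Actc1 and 61 bases before it in Myl7. Both strands were searched, and the box reads as a CArG box on each of them. Of the 11 higher sarcomere genes 3 held it, Actc1, Myl3 and Myl7, against 1.62% of the 27025 genes in the promoter table. A match is a description of the letters and not evidence of binding.

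Of 9 smooth muscle genes compared, 5 were higher and 1 lower. Acta2 went from 2.21 to 430.4 RPKM, against 0.43 and 2.79 in the overexpressing cells and 2.14 and 11.9 in SFEB culture. Csrp1 went from 84.6 to 288 RPKM and Cald1 from 22.5 to 84.7. Actg2 was listed at 0 and then at 2.14 RPKM, and Synpo2 went from 0.21 to 1.4. Tagln (SM22), also an actin-associated gene, stood at 75.1 and 73.3 RPKM, and Cnn1 (calponin) went from 8.23 to 3.02. Myh11, the smooth muscle myosin, was at 0.06 and 0.07 RPKM.

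Blood genes had the largest median of the 39 lists, 3.14, with 14 of 15 compared members higher and 0 lower. Hbb-bh1 stood at 2.01 RPKM on day 4 and 4229.7 on day 7, Hba-x at 0.61 and 1922, and Hbb-y at 0.44 and 1113. These are the globins of primitive erythrocytes, the first red cells of the yolk sac. Together they summed to 3.06 RPKM on day 4 and 7264 on day 7, or 1.42% of all RPKM in that library. The same sum was 0.96 and 7.33 RPKM in the overexpressing cells and 3.54 and 32.0 in SFEB culture, so the control day 7 library stood far above the other 5. The counting interval of the log2 ratio was 10.65 to 11.45 for Hbb-bh1. The adult globins Hba-a1, Hba-a2, Hbb-b1 and Hbb-b2 were listed at 0 in every library. Hba-a1 and Hba-a2, and likewise Hbb-b1 and Hbb-b2, are near copies, and how reads with several matches were treated is not given in the sources used here, so whether they were absent was not tested.

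The erythroid regulators and enzymes accompanied the globins. Gata1 went from 0.24 to 22.3 RPKM, Klf1 from 0.22 to 4.63, Nfe2 from 0.35 to 9.98 and Tal1 from 1.09 to 9.38. Alas2, which starts haem synthesis in red cells, went from 0.03 to 40.4 RPKM. Epor, the erythropoietin receptor, went from 1.70 to 7.52 RPKM. Late membrane genes were low, with Rhag at 0.74 and Kel at 0.42 RPKM on day 7. Car2 (66.6 and 62.7 RPKM) was the compared member within 2-fold. Leukocyte genes showed no common gain, with 3 of 10 compared higher, 2 lower and a summed level of 42.7 RPKM on day 4 and 43.7 on day 7. Ptprc (CD45) was at 0.08 and 0.03 RPKM, Csf1r at 0.22 and 0.25 and Sfpi1 (PU.1) at 0.56 and 0.66. The members of that list that were higher were Itga2b (CD41), which marks early blood progenitors and megakaryocytes (1.59 to 10.2 RPKM), Lcp1 and Runx1 (0.35 to 1.59).

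Globin promoters are shown with the letters that GATA factors (AGATAA or AGATAG or TGATAA or TGATAG), KLF factors (CACCC) and CCAAT-binding factors (CCAAT) are known to bind, in capitals on either strand. The RefSeq stretches (GRCm38.p6) are the 250 bases before the start, chr11:32276350-32276599 on the plus strand for Hba-x and chr7:103853208-103853457 on the minus strand for Hbb-y.
Hba-x: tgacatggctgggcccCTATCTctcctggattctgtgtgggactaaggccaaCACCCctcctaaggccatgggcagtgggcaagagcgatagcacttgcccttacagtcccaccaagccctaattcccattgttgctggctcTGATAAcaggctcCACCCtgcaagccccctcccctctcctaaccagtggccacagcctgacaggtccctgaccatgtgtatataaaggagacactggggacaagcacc
Hbb-y: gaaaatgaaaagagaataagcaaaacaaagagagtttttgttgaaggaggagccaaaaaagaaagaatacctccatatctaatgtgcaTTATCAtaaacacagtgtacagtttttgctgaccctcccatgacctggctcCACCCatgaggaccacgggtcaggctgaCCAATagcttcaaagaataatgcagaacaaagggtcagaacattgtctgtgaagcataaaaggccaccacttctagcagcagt

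In Hba-x GATA letters began 234 and 108 bases before the start and CACCC 198 and 95 bases before it. Hbb-y held GATA letters at 162, CACCC at 111 and CCAAT at 83 bases. Of the 14 higher erythroid genes 9 had a promoter in the table. GATA letters were in 7 of the 9, CACCC in 9 and CCAAT in 3, against 29.7%, 54.5% and 37.5% of all genes in that table. Such short words are common, and their presence here is a description.

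**Figure D2:**
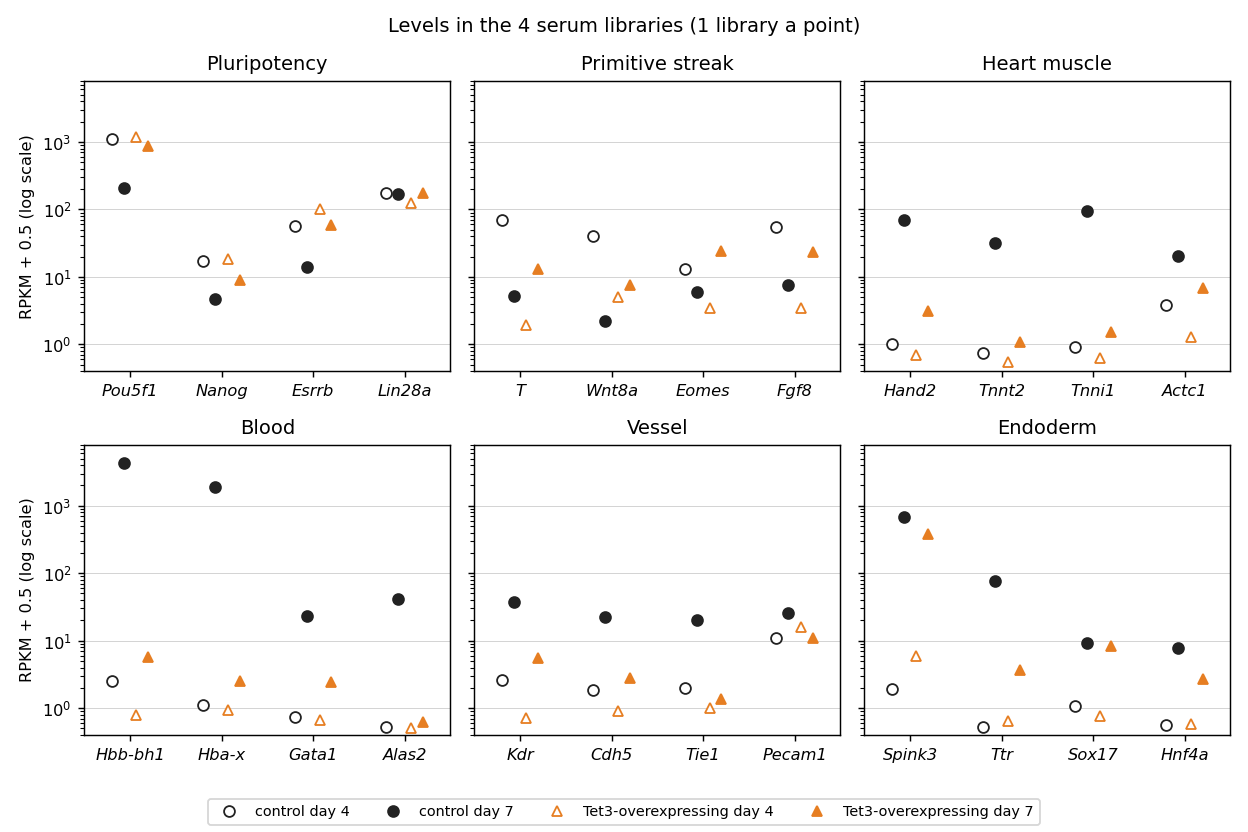
RPKM + 0.5 (y axis, log scale) of 4 genes for each of 6 cell kinds (x axis) in the 4 serum libraries. Circles are control and triangles Tet3-overexpressing cells, open on day 4 and filled on day 7, 1 library a point; filled circles stand above the other 3 symbols for all heart, blood and vessel genes, and the streak genes are highest in the open circles except for Eomes.

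Vessel genes were higher almost throughout. Of 23 endothelial genes compared 20 were higher and 0 lower, with a median of 2.15. Kdr (Flk1), the VEGF receptor that also marks the common progenitor of blood and vessels, went from 2.13 to 36.3 RPKM. Cdh5 (VE-cadherin) went from 1.38 to 21.9 RPKM, Tie1 from 1.52 to 19.5, Icam2 from 0.44 to 10.1 and Emcn from 0.02 to 4.78. Etv2, the early and transient regulator of the lineage, went from 2.77 to 7.44 RPKM. Pecam1, which ES cells also express, went from 10.6 to 25.4 RPKM. With overexpression 4 of the 23 genes were higher, with Kdr at 0.22 and 5.05 RPKM and Cdh5 at 0.41 and 2.25. In SFEB culture 0 of the 23 were higher, against 12.1% of all genes (and 8.09% lower) between its days 6 and 10. Lyve1, of lymphatic vessels, was at 0.18 RPKM on day 7.

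Endoderm genes were higher, those of the yolk sac endoderm most. Of 20 visceral endoderm products compared 14 were higher and 2 lower, with a median of 2.90. Spink3 went from 1.4 to 676 RPKM, Ttr from 0.02 to 76.1, Rbp4, the retinol carrier, from 1.96 to 84.1, Apoa1 from 0.30 to 69.4 and Apom from 0.25 to 61.1. Afp, the alpha-fetoprotein that is abundant in yolk sac, reached 2.07 RPKM, and Alb was listed at 0 on both days. Apoe stood at 631 RPKM on day 4 and 671 on day 7. The members that were lower were Apoa2 (13.1 to 3.93 RPKM) and the endocytic receptor Lrp2 (8.28 to 1.95). Of its partners, Cubn (1.86 and 3.52 RPKM) was within 2-fold and Amn (1.32 and 4.45) was higher. Among the regulators 9 of 11 were higher and 1 lower, with Gata4 and Gata6, also in the cardiac list, among the higher ones. Hnf4a, of visceral endoderm and liver, went from 0.07 to 7.25 RPKM, Sox17 from 0.59 to 8.73 and Foxa2 from 1.88 to 5.59. Elf3 was the lower one, from 44.6 to 18.6 RPKM.

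The endoderm regulators were the list on which both serum courses lay closest among those with a control median over 1. In the overexpressing cells 9 of the same 11 genes were higher and 0 lower, with a median of 1.93 against 2.07 in control. There Sox17 read 0.26 and 7.80 RPKM, Foxa2 0.29 and 5.05, and Gata4 1.9 and 13. Spink3 was also higher there, from 5.51 to 377 RPKM, but Ttr reached 3.23 and Apoa1 8.88. The defining liver and foregut genes Pdx1, Nkx2-1 and Onecut1 were at 0.23 RPKM or less in both control libraries.

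Epithelial genes gave way to mesenchymal ones in part. In the epithelial-mesenchymal list 9 of 12 genes were higher and 3 lower, with none between. The transcription factors Snai2 (0.47 to 13.7 RPKM), Twist2 (0.92 to 15.4), Twist1 (3.80 to 22.3) and Zeb1 (1.97 to 12.3) were higher, as were Cdh11 and the intermediate filament gene Vim (142 to 631 RPKM). The epithelial adhesion genes Cdh1 (111 to 47.9 RPKM) and Epcam (148 to 58.7), and the splicing factor gene Esrp1, were the 3 lower ones. In the overexpressing cells Cdh1 read 88.8 and 125 RPKM, Vim 103 and 141, and Snai2 0.51 and 0.31. Simple epithelial keratins were also higher in control on day 7, in a list with 4 of 11 genes higher and 2 lower. Krt8 went from 93.9 to 524 RPKM, Krt18 from 160 to 607 and Krt19 from 25.2 to 84.8, while Krt5, Krt14 and Trp63 of stratified skin stayed under 1 RPKM.

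Matrix genes differed in both directions. In the fibrillar collagen and stroma list 9 of 18 were higher and 4 lower. Col3a1 went from 9.94 to 147 RPKM, Col1a1 from 12.4 to 104, Col1a2 from 9.64 to 58.5 and Postn from 1.15 to 31.7. The receptors Pdgfra (1.41 to 21.6 RPKM) and Pdgfrb (1.66 to 20.4) were also higher. Against them Mgp went from 105 to 12.6 RPKM, Thy1 from 14.6 to 2.64, and Col6a1 and Col6a2 from 17.8 to 7.74 and from 12.4 to 3.6. With overexpression Col3a1 went from 15.6 to 5.15 RPKM and Col1a1 from 26.5 to 9.72, and of the 18 genes 9 were lower and 1 higher. Mgp was lower in both courses, at 192 and 47.3 RPKM in the overexpressing cells. In the basement membrane list 4 of 12 were higher and 1 lower. Col4a1 went from 29.9 to 128 RPKM, Col4a2 from 16.7 to 75.1 and Sparc from 109 to 572, while Lama5 went from 28.0 to 10.9.

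**Figure D3:**
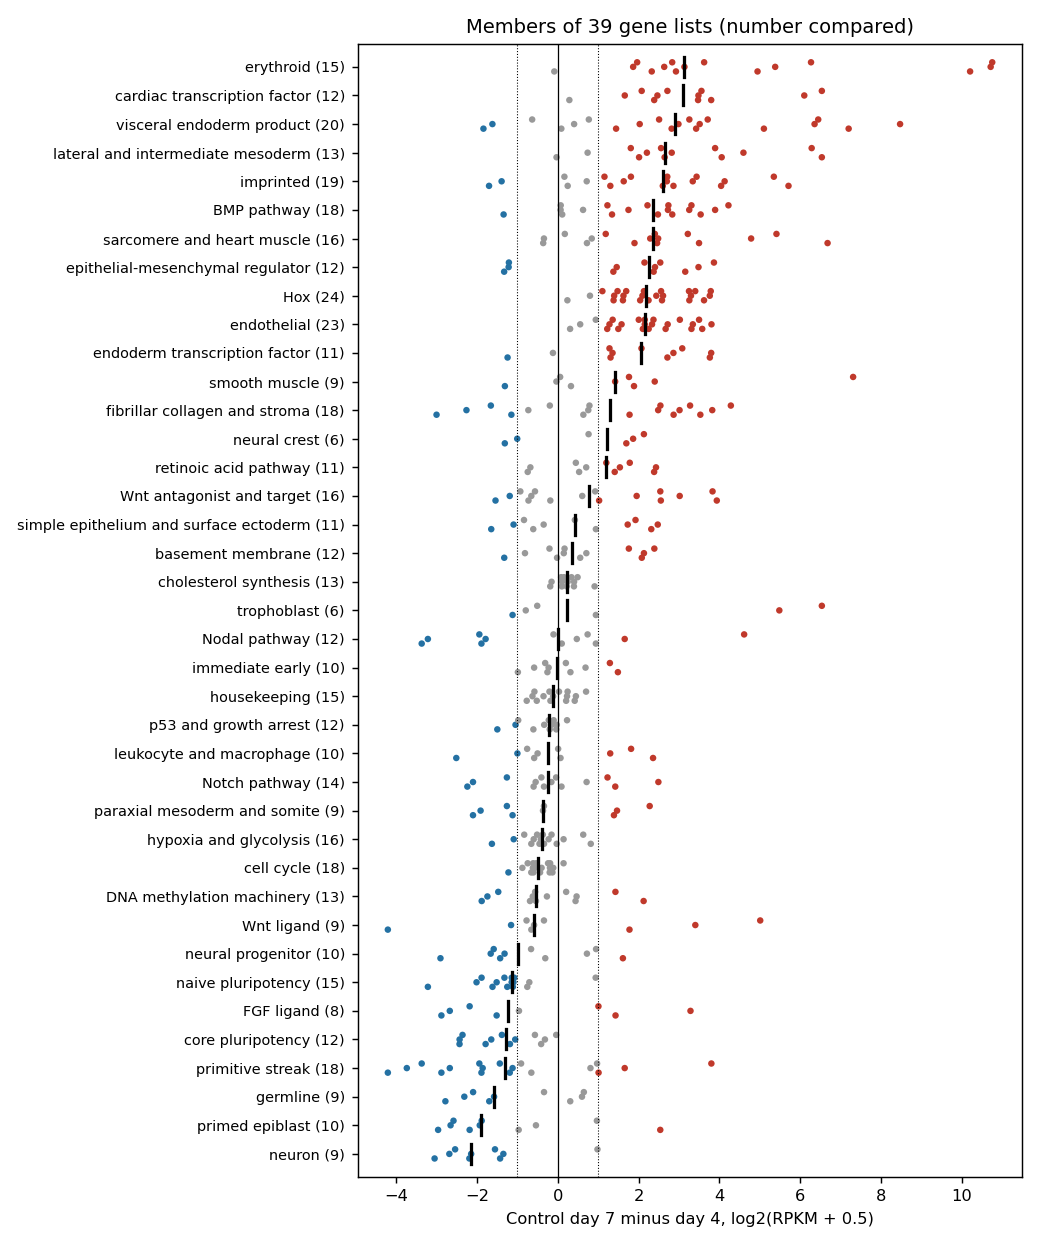
Difference between day 7 and day 4 in control embryoid bodies (x axis, log2 of RPKM + 0.5) for each compared member of 39 gene lists (y axis, number compared in brackets). Red points are higher and blue points lower by 2-fold or more, bars mark medians and dotted lines 2-fold; the medians run from -2.15 for neuron genes to 3.14 for erythroid genes.

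Hox genes, which set position along the body axis, were higher, the posterior members most in level. Of 39 genes 24 were compared, 22 were higher and 0 lower, and the median was 2.19. Hoxd9 went from 0.24 to 9.72 RPKM, Hoxc10 from 0.22 to 9.28, Hoxa10 from 0.12 to 7.13, Hoxa11 from 0.19 to 6.80 and Hoxa13 from 0.21 to 6.29. The 16 genes of paralogue groups 9 to 13 summed to 3.41 RPKM on day 4 and 59.5 on day 7. Groups 5 to 8 (11 genes) summed to 2.94 and 25.0 RPKM and groups 1 to 4 (12 genes) to 7.35 and 19.5. Each Hox gene stayed under 10 RPKM, and the clusters differed. In the Hoxa cluster groups 2 to 7 were all under 1 RPKM on both days, below the genes of groups 9 to 13 on day 7. In the Hoxb cluster Hoxb9 (0.44 and 0.46 RPKM), Hoxb13 (0.62 and 0.14) and Hoxb1 (0.99 and 0.92) showed no gain, while Hoxb2 went from 1.32 to 5.39 RPKM and Hoxb6 from 0.29 to 4.15. In the Hoxd cluster group 13 reached 5.65 RPKM.

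The other courses did not share the gain of posterior Hox genes. The sum of groups 9 to 13 was 5.48 and 3.21 RPKM in the overexpressing cells and 1.23 and 2.20 in SFEB culture. In SFEB culture groups 1 to 4 summed to 20.5 RPKM on day 6 and 39.5 on day 10, led by Hoxa2 at 11.9 and 20.7 RPKM, against 0.26 on both days of the control course.

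**Figure D4:**
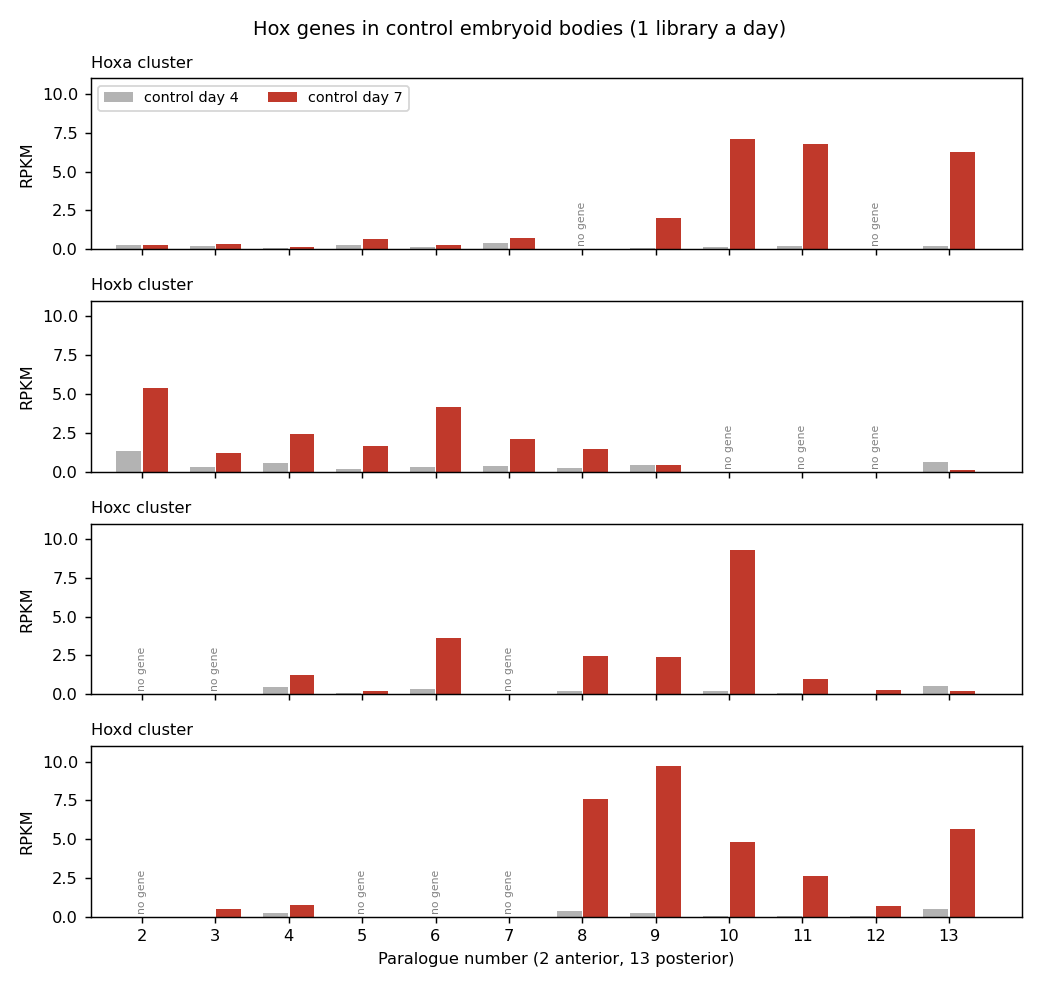
RPKM (y axis) of Hox genes of paralogue groups 2 to 13 (x axis) by cluster (panels) in control embryoid bodies, grey for day 4 and red for day 7, 1 library each. The tallest red bars are Hoxd9 at 9.72 and Hoxc10 at 9.28 RPKM, and Hoxa2 to Hoxa7 stay near the axis.

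Most neuron genes compared, and some neural progenitor genes, were lower on day 7. Of 9 neuron genes compared 8 were lower and 0 higher, with a median of -2.15. Stmn2 went from 97.7 to 21.7 RPKM, Nefl from 28.8 to 5.92, Tubb3 from 18.0 to 6.37 and Elavl3 from 3.36 to 0.10. Gap43 went the other way, from 8.48 to 17.2 RPKM, just short of 2-fold. The proneural gene Neurog2 was at 0.01 and 0 RPKM and Dcx at 0.02 on both days. In SFEB culture all 9 were higher on day 10 than on day 6, with Tubb3 at 93.4 and 616 RPKM and Dcx, which was under the control filter, at 5.74 and 167. Among neural progenitor genes 5 of 10 were lower and 1 higher. Olig2 went from 16.7 to 1.79 RPKM, Sox1 from 1.24 to 0.05, Pax6 from 1.57 to 0.33 and Nes from 31.5 to 11.4. Ncam1, the higher one, which mesoderm also expresses, went from 1.08 to 4.33 RPKM. Within 2-fold, Sox11 (7.30 and 12.4 RPKM) and Lhx2 (0.34 and 1.12) had positive differences and Fabp7 and Hesx1 negative ones. In the neural crest list, with 3 of 6 compared higher and 2 lower, Sox10 was at 0.27 and 0.04 RPKM, while Sox9 (0.36 to 3.27), Ednrb and Ets1 were higher. Of 6 trophoblast markers compared, Hand1, which 2 other lists also hold, and Plac1 (0.13 to 27.7 RPKM) were higher and Eomes lower, with Elf5 at 0.01 and 0.07 RPKM and Tpbpa listed at 0.

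Imprinted genes, many of them fetal growth regulators expressed from 1 parental allele, were higher in 14 of 19 cases and lower in 2, with a median of 2.60. Igf2, the fetal growth factor, went from 31.5 to 1679 RPKM, Dlk1 from 2.61 to 126, Mest from 24.3 to 435 and Cdkn1c from 15.4 to 262. H19, the noncoding neighbour of Igf2 that is known to share its enhancers, went the other way, from 20.7 to 6.02 RPKM, as did Grb10 (4.17 to 1.28). Meg3 stood at 6.47 and 7.76 RPKM beside the gain of its neighbour Dlk1. With overexpression H19 was also lower on day 7 (33.7 and 9.51 RPKM), while Igf2 read 17.8 and 51.2 and Dlk1 4.94 and 1.92. Alleles are not resolved in these values. Of the DNA methylation machinery 2 of 13 genes were higher, Tet3 and the reader Mbd2 (6.84 to 19.2 RPKM), and 3 lower, Dnmt3b, Dnmt3l (82.2 to 29.3) and Tet1 (9.71 to 2.55). Control cells thus held more Tet3 and less Tet1 transcript on the later day, and Dnmt1 (66.2 and 54.9 RPKM) was within 1.5-fold.

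Growth and general metabolism differed little. In the cell cycle list 0 of 18 genes were higher and 1 lower (Ccne1, 97.0 to 41.3 RPKM), with a median of -0.49, and Mki67 read 20.0 and 18.2 RPKM. In the p53 list 0 of 12 were higher and 2 lower, Gadd45a and Cdkn2b. Immediate early genes had 2 of 10 higher, Myc (10.6 to 30.6 RPKM) and Jun (14.3 to 35.7). Hypoxia and glycolysis genes had 0 of 16 higher and 2 lower, Hk2 and Adm. All 13 cholesterol synthesis and all 15 housekeeping genes compared were within 2-fold, with medians of 0.22 and -0.12. Hmgcs1, which all cells use for sterol synthesis, was listed at 0 in each of the 6 libraries, so a 0 in this table can also be a value that was not estimated.

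Set against the overexpressing course, the control differences were shared in direction more than in size. Of the 1425 genes higher in control, 75.6% had a positive difference in the overexpressing cells (54.1% of all compared genes did) and 18.1% reached 2-fold (3.27% of all), with a median of 0.33 against 1.63 in control. Of the 1056 lower genes, 64.7% had a negative difference there (45.2% of all), 4.73% reached 2-fold (0.94% of all), and the median was -0.15 against -1.41. Moves of 2-fold in the opposite direction were seen for 11 of the higher genes, or 0.77%, and 37 of the lower genes, or 3.5%, close to the shares of all genes that were lower and higher in that course. In SFEB culture, where 12.1% of all compared genes were 2-fold higher on day 10 and 8.09% lower, 366 of the higher genes (25.7%) were also higher and 73 were lower. Of the lower genes 142 (13.4%) were lower there and 160 higher. Days, medium and cells differ there, so these values stand side by side only. The overexpressing cells differ in Tet3 and were sequenced less deeply, and neither part was tested.

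**Figure D5:**
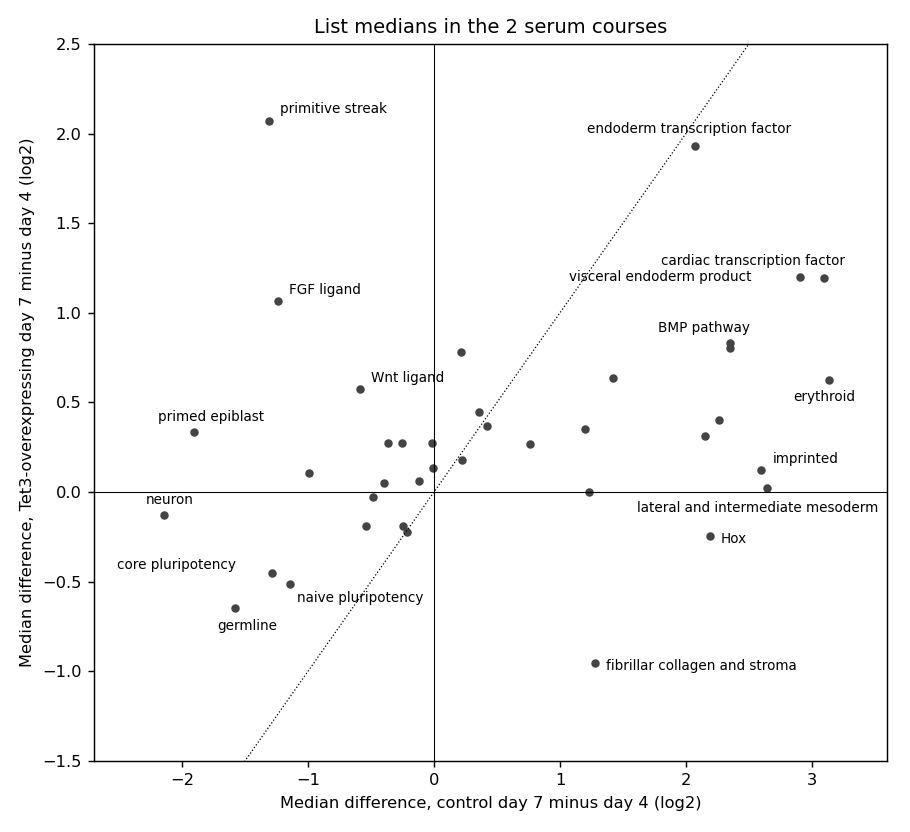
Median difference of each of the 39 lists in control (x axis) and Tet3-overexpressing embryoid bodies (y axis), day 7 minus day 4 in log2 units; the dotted line marks equal medians. Endoderm regulators lie near the line at 2.07 and 1.93, primitive streak genes at -1.31 and 2.07, and Hox genes at 2.19 and -0.25.

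A test was possible only for the mean effect of the day over both kinds of cell, from an additive limma model on the 4 serum libraries with 1 residual degree of freedom. With limma 0 of 12125 genes (0%) passed an adjusted p of 0.05 in either direction, the smallest adjusted p being 0.0731, and 1164 genes had an unadjusted p under 0.05, 749 higher and 415 lower. The count depended on the scale, with 12 higher genes at a pseudocount of 0.1, 10 at a filter of 5 RPKM, and 61 higher and 4 lower when libraries were scaled to equal totals. The 5 genes with the smallest p among those higher were Cfc1 (mean log2 difference 5.06, SE 0.32), Cited1 (3.22, SE 0.22), Asb4 (4.09, SE 0.29), Krt8 (2.76, SE 0.20) and Amot (4.07, SE 0.30). Cited1, a transcriptional co-activator of the yolk sac and placenta, went from 4.26 to 44.2 RPKM in control and from 1.47 to 17.8 in the overexpressing cells. The 5 with the smallest p among those lower were the matrix gene Mgp (-2.51, SE 0.28), H19 (-1.74, SE 0.20), Tcf15 (-1.83, SE 0.22), Mylpf (-1.22, SE 0.16) and Snord49a (-1.29, SE 0.18). Their adjusted p from limma was 0.124 for Mgp and larger for the other 4. The genes with the largest control differences, such as the globins, were not among them, since the difference between the courses is the error of this model.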

How the data were processed

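Total RNA of mouse ES cells was read on a SOLiD instrument after SOLiD Total RNA-seq library construction, per the labels' protocols. The authors deposited 1 table of RPKM values for 21937 symbols. The submitters' processing notes name HTSeq and mm9. For the aligner, annotation, strand setting and multiply mapped reads the sources used here give nothing, so values of close paralogs and overlapping or antisense genes are uncertain. Count models were therefore not fitted to these RPKM values.

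Differences are of log2(RPKM + 0.5), which understates changes of low genes, for genes at 1 RPKM or more in either control library. With 1 library a side there is no test. limma 3.58.1 (R 4.3.3, eBayes with trend, Benjamini-Hochberg adjustment) fitted cell kind and day to the 4 serum libraries, and was tested on simulated data. The labels do not say that libraries came from separate cultures. Depth was estimated from the steps of low RPKM values with GENCODE vM21 lengths. At the chosen totals 59.2% (control day 7) to 75.8% of low values lay within 0.15 read of a whole number. Multiples of a total give whole reads too, the smallest was kept, and for both control libraries 2 times the total gave a closer fit, so their depth may be understated. Intervals are 95% Clopper-Pearson and cover counting error only.

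The 39 lists held 656 names, 7 matched by older symbols and 3 not listed (Ahsp, Rhox5 and Col6a3). Members and lists were chosen with earlier results of these data known. Named genes were the 12 largest gains and losses, the 10 most abundant genes, the 5 smallest p-values each way, and, of each list, key genes, the 4 largest gains, 2 largest losses, 2 highest levels and members that moved 2-fold against the majority. Any other gene was named after its values were seen. A few genes the rule would name are not reported here. Alternatives were other pseudocounts, filters and scalings. Promoter and microRNA sequences came from RefSeq tables (GRCm38.p6).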

Additional observations from a re-analysis of the deposited data

Results flagged for a closer look

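The following 4 lists had medians of opposite sign in the control and the Tet3-overexpressing courses, and the differences between the courses were not tested. They are not all such lists. Others, such as Hox (2.19 and -0.25) and primed epiblast (-1.91 and 0.34), had a median of smaller size in at least the control or the overexpressing course. The primitive streak list had a median of -1.31 in control and 2.07 in the overexpressing cells. FGF ligands had medians of -1.24 and 1.07, Wnt ligands of -0.59 and 0.58, and the fibrillar collagen and stroma list of 1.28 and -0.96. Of the 24 genes with the largest control differences, T (-3.74 in control, 2.74 with overexpression) and Fst (-3.30 and 1.55) also moved in opposite directions, counting only genes with 3 or more estimated reads on both control days. The Wnt ligand median is under 2-fold in both courses, with 3 members higher and 2 lower in control, and at a filter of 5 RPKM the control value was 0.59, the same sign as with overexpression. Each value is a difference between single libraries. Estimated depth was 43700000 and 26900000 reads in control and 22400000 and 17300000 with overexpression, and its part in these results was not tested.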

How the results depend on the processing

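No paired analysis was possible because the labels give no replicate numbers and each condition has 1 library a day; leaving out a library leaves no residual degree of freedom. Without replicates, a value was taken as moved when it shifted by more than 1.5-fold, and no list median of 2-fold or more changed sign under the 6 alternatives. No named gene with such a difference changed sign under the other pseudocounts or scalings; a filter cannot alter a single gene's difference, and at 5 RPKM 259 of the 320 named genes remained. A filter of 5 RPKM left 923 genes higher and 571 lower. It set the median at -1.91 for paraxial mesoderm, 3.90 for lateral mesoderm, 0.33 for smooth muscle, 4.29 for erythroid, 2.79 for endoderm regulators, 0.35 for neural crest, 3.21 for trophoblast, 0.59 for Wnt ligands (a change of sign), -1.85 for FGF ligands, 3.33 for Hox and -2.31 for germline genes. With no filter the medians were 2.47 for cardiac regulators, 0.72 for sarcomere, 0.54 for smooth muscle, 2.27 for visceral endoderm, 1.31 for endoderm regulators, -0.33 for neural progenitor, -0.81 for neuron, 0.00 for neural crest, -0.44 for FGF ligands, 0.53 for retinoic acid, 1.396 for Hox, 1.72 for imprinted and -0.61 for germline genes, as genes near 0 joined the lists. A pseudocount of 0.1 gave 3.45 for lateral mesoderm, 4.03 for cardiac regulators, 4.38 for erythroid, 2.84 for endoderm regulators, 3.12 for Hox and -2.20 for germline genes, and a pseudocount of 1 gave 1.72 for sarcomere. The additive limma model called 12 genes higher at a pseudocount of 0.1, 10 at a filter of 5 RPKM, and 61 higher and 4 lower after scaling to equal totals; the cause was not tested. Of 320 named genes 54 moved at a pseudocount of 0.1, 36 at 1 and 21 with equal totals. Genes with few estimated reads, such as the microRNA genes, are limited by depth.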

Other observations

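The following genes, chosen after their values were seen, moved 2-fold in opposite directions in the 2 serum courses and stand here as single genes, with no list behind them. Gbp2, an interferon-induced GTPase, went from 19.3 to 2.12 RPKM in control and from 0.56 to 2.65 in the overexpressing cells. Psmb8, the immunoproteasome subunit, read 10.2 and 2.12 RPKM in control against 0.69 and 2.90. Ltb, a lymphotoxin gene, read 15.98 and 3.51 RPKM against 0.86 and 8.72, and Igtp 4.7 and 1.1 against 0.62 and 2.15. In each of the 4 genes control day 4 held the highest value of the 4 serum libraries. In the other direction Dlk1, Col3a1, Col1a1 and Col1a2 were joined by Loxl1, a collagen cross-linking enzyme (1.83 and 6.57 RPKM in control, 3.25 and 1.16 with overexpression), and Serpinf1 (7.65 and 34.6 against 12.1 and 5.01). None of these differences has a replicate.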
